A study of Homo sapiens with 79 samples.

Results

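The mRNAs of 8 chromatin remodelers of the CHD family, CHD1, CHD2, CHD3, CHD4, CHD6, CHD7, CHD8 and CHD9, were followed through 24 fRIP experiments in K562 cells. K562 is an established erythroleukemia cell line of human origin. In fRIP, lightly formaldehyde cross-linked cells are lysed by sonication, an antibody pulls down 1 protein, and the co-purified RNA is sequenced beside input, which is lysate RNA taken before the antibody step. The members were the rows of the deposited gene table that carry these symbols (8 of 48453 genes) and the rows of the isoform table that belong to them (125 of 185661 isoforms). Every library came from the same untreated K562 line, and the fRIP groups differ by the target of the antibody. The targets were the remodelers CHD1, CHD4 and CHD7, other chromatin-associated proteins (the Polycomb subunits EZH2 and SUZ12, the histone modifiers CBP, PCAF, HDAC1, LSD1 and PHF8, the methyltransferase subunits WDR5 and RBBP5, and CBX3, phospho-CBX3, CTCF, STAG2, DNMT1 and NUP98) and RNA binding proteins (ADAR, HNRNPH1, HNRNPU, HUR, IMP1 and PABP). EZH2 and STAG2 had 2 libraries each and the other proteins 3 each, which gave 70 fRIP libraries, and 9 input libraries were labelled as 3 sets of 3.

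CHD proteins use the energy of ATP to move, space or evict nucleosomes. They combine a SNF2-type helicase motor with a pair of chromodomains, modules that can read methylated histone tails. CHD1 and CHD2 act on transcribed genes, CHD3 and CHD4 are alternative motors of the NuRD corepressor complex, and CHD6, CHD7, CHD8 and CHD9 form a further subfamily that acts at enhancers and promoters. CHD2, CHD7 and CHD8 are known as genes of neurodevelopmental disorders, and CHD7 as the gene of CHARGE syndrome. Their transcripts are long and have many exons. In hg19 coordinates, CHD1 lies at chr5:98189689-98264711 on the minus strand, CHD2 at chr15:93429433-93571226 on the plus strand, CHD3 at chr17:7788114-7816078 on the plus strand and CHD4 at chr12:6679248-6723690 on the minus strand. CHD6 lies at chr20:40030723-40247023 on the minus strand, CHD7 at chr8:61591299-61780587 on the plus strand, CHD8 at chr14:21853353-21924285 on the minus strand and CHD9 at chr16:53088903-53363062 on the plus strand.

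Values are FPKM, fragments per kilobase of transcript and per mega (M) fragments. A change is the difference in mean log2(FPKM + 1) between the libraries of a fRIP and the 9 inputs, and it was called enriched or depleted when it passed an adjusted p of 0.05 in limma (Benjamini-Hochberg over 25442 genes tested) and a size of 1. Since FPKM is relative to the library, enrichment is a larger share of the RNA recovered and not an amount bound. Depth, estimated from the step that 1 fragment adds to low values, was 1.79 to 54.2 M fragments per fRIP library and 11.1 to 28.2 M per input. The erythroid markers of K562 were present in input, with mean levels of 866 FPKM for the fetal globin HBG2, 540 FPKM for HBE1 and 82.2 FPKM for the transcription factor GATA1. Among markers of other cell types, the fibroblast collagen COL1A1 was at 0.404 FPKM, the T cell marker CD3E at 0.177 FPKM and the hepatocyte marker ALB at 0.153 FPKM.

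All 8 mRNAs were expressed in input. CHD4 was the most abundant at 248 FPKM ± 58.3 (SD, n = 9), ahead of the CHD2 row at 143 ± 21.2, CHD9 at 61.0 ± 9.99 and CHD1 at 57.2 ± 6.35. CHD3 followed with 40.9 ± 40.5, then CHD6 with 24.9 ± 3.78, CHD8 with 21.4 ± 3.68 and CHD7 with 16.5 ± 2.11. Of the 7 neighbouring pairs in this order, 3 differed within libraries by an exact sign-flip test: CHD4 lay above the CHD2 row, the CHD2 row above CHD9 and CHD8 above CHD7 in every input (each adjusted p = 0.00911, n = 9). The CHD2 row also holds isoforms of the non-coding RNA CHASERR, and without them it was at 78.8 ± 19.6 FPKM and below CHD9 in 1 input (50.0 against 53.4 FPKM), an order that was not tested. Most of that remainder lies in isoforms with no match in the annotation, and those that the annotation assigns to CHD2 were at 21.3 ± 3.35 FPKM. The order of CHD9 and CHD1 (adjusted p = 0.438, exact test, CHD9 higher in 7 of 9 inputs) and that of CHD3 and CHD6 (adjusted p = 0.477, exact test, CHD3 higher in 5 of 9) were within the spread. CHD1 exceeded CHD3 in 7 of 9 inputs (adjusted p = 0.0656, exact test) and CHD6 exceeded CHD8 in 8 of 9 (adjusted p = 0.0547, exact test), and neither passed.

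**Figure D1:**
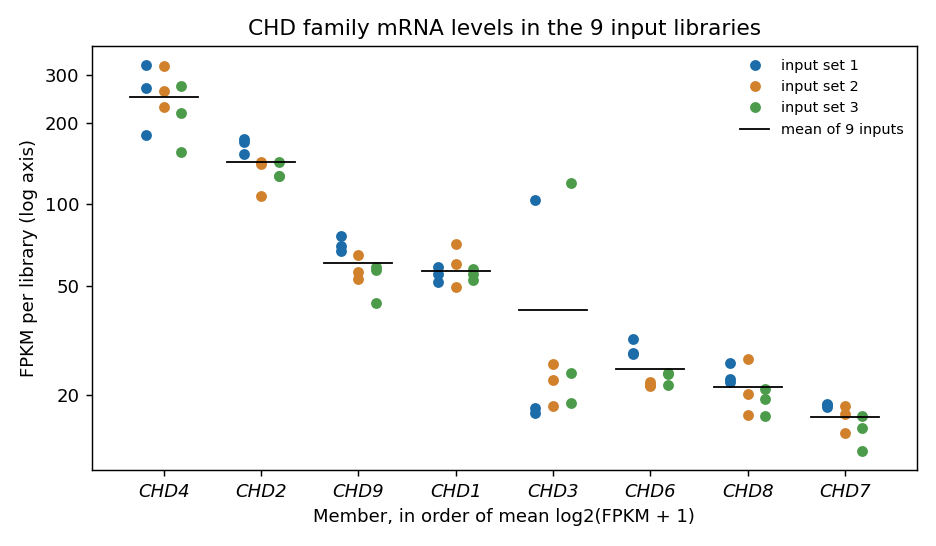
FPKM of each CHD family mRNA (log axis) in the 9 input libraries, coloured by input set, with the mean of 9 as a bar. CHD4 sits at the top with 156 to 325 FPKM and CHD7 at the bottom with 12.4 to 18.5 FPKM, and CHD3 is the only member with libraries (2 of 9) far above the rest of its group.

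The CHD3 spread came from 1 short isoform. CHD3 was listed between 17.1 and 120 FPKM in input with a median of 22.7, and the isoform CHD3-217, of 103 bases, was listed at 0 in 60 of 79 libraries (7 of 9 inputs) and reached 631 FPKM in an HNRNPH1 library. An isoform of the CHD4 row, ENST00000536301.1, behaved alike, with a listed 0 in 37 of 79 libraries and a maximum of 456 FPKM. Results for CHD3 and CHD4 rest in part on them. Below, erratic isoforms are the 3 that were listed at 0 in at least 1 input but had an input mean of at least 2 FPKM, namely these and CHD3-212, and values without them are given beside the calls of CHD3 and CHD4 against input.

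Among the 192 pairs of 8 mRNAs and 24 fRIPs, 25 were enriched and 5 depleted. The comparisons share the same 9 inputs, so that each stands on its own values and not as independent repeats. SUZ12 fRIP, which targets a subunit of the Polycomb complex PRC2, held all 8 members, and PABP fRIP, which targets the poly(A) tail binding protein, held 4 of the 5 depleted pairs. CHD1 mRNA was highest in the fRIP of its own protein, and CHD7 mRNA was highest in the fRIP of LSD1, a histone demethylase.

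**Figure D2:**
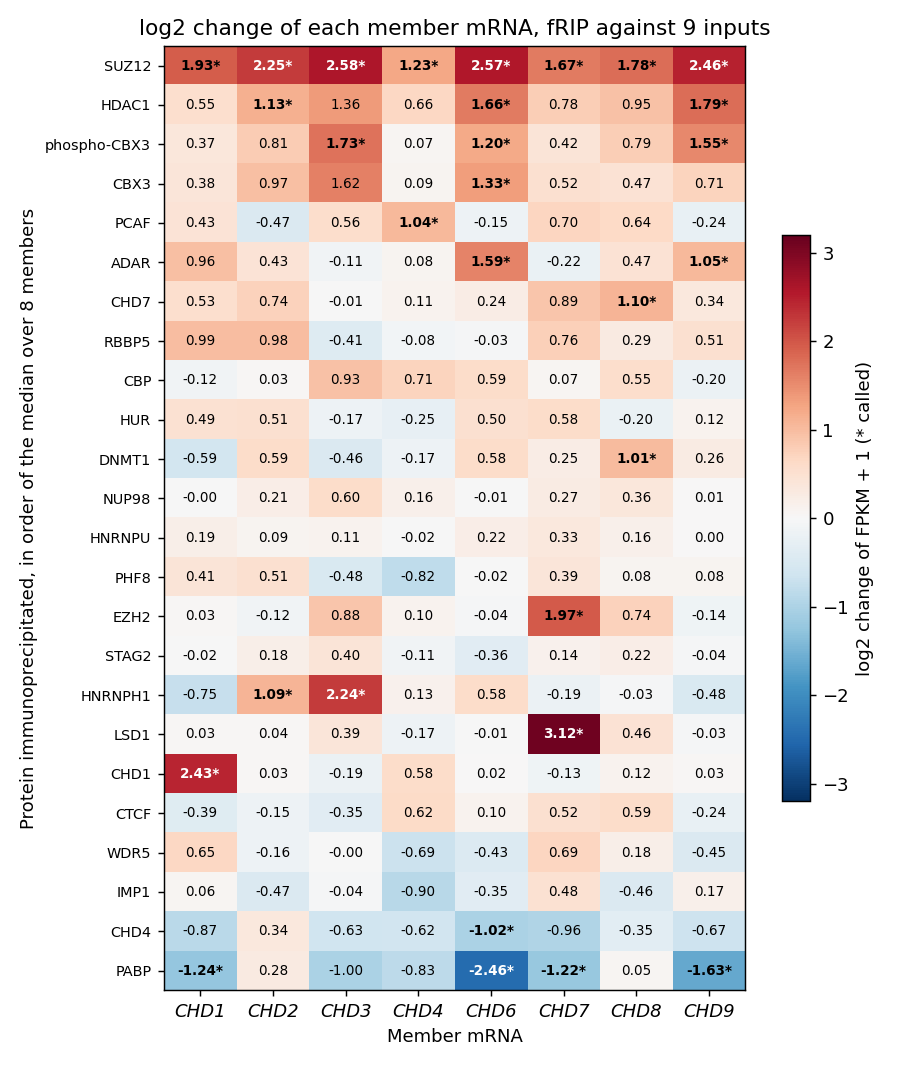
Mean log2 change of each CHD family mRNA (columns) in each fRIP (rows, ordered by the median over the 8 mRNAs) against the 9 inputs, with asterisks on called pairs. The SUZ12 row is red throughout (1.23 to 2.58), the PABP row is blue for CHD1, CHD6, CHD7 and CHD9, and the darkest single cell is CHD7 in LSD1 fRIP at 3.12.

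CHD1 fRIP enriched CHD1 mRNA and no other member. CHD1 was at 308, 236 and 416 FPKM in the 3 CHD1 fRIP libraries, and between 50.0 and 71.4 FPKM in the 9 inputs. Each CHD1 fRIP library was thus above every input. The log2 change was 2.43 (SE 0.14, limma adjusted p = 1.11e-19, exact permutation p = 0.00455, the smallest that 3 against 9 libraries allow), the 10th largest of 25442 genes in that fRIP, where 0.424% of genes were enriched and 1.0% depleted. Enriched genes made up 29.8% of those called in CHD1 fRIP, and 48.4% when libraries were centred. No other fRIP had a higher mean for CHD1: SUZ12 came next with 189, 213 and 261 FPKM, and its highest library overlapped the lowest of CHD1 fRIP. The other 7 members changed by between -0.19 (CHD3) and 0.58 (CHD4) in CHD1 fRIP, and none was called. CHD4 mRNA, at 354, 452 and 294 FPKM in CHD1 fRIP against 156 to 325 FPKM in input, had an adjusted p of 0.311 in limma. The median over the 8 members was 0.03, beside -0.00412 over all genes tested. Across the 3 CHD1 fRIP libraries, deviations followed those of the same-numbered libraries of input set 2, and with the replicate number as a block within that set the change of CHD1 was 2.36 and the call held.

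The recovered CHD1 RNA had a different make-up of isoforms from the input RNA. Of 11 CHD1 isoforms tested, 5 were enriched in CHD1 fRIP and 0 depleted, where 1.45% of all isoforms tested were enriched and 0.586% depleted. ENST00000284049.3, which had no match in the annotation used here and was the main CHD1 isoform of the table, stood at 125, 112 and 179 FPKM against 31.0 ± 4.64 in input (SD, n = 9, log2 change 2.11). The isoform with the largest change was CHD1-208, annotated as a target of nonsense-mediated decay. It was at 66.4, 42.7 and 80.2 FPKM in CHD1 fRIP and at most 0.766 FPKM in any input, a log2 change of 5.50 (SE 0.27, limma adjusted p = 1.2e-23). Among the other 67 fRIP libraries its highest value was 13.1 FPKM, in a range that did not reach the lowest CHD1 fRIP library, and the second highest mean was that of IMP1 fRIP at 8.66 FPKM. CHD1-202, the other isoform annotated as a decay target, was at 15.1, 4.08 and 19.4 FPKM against 0.257 ± 0.259 in input (log2 change 3.26, limma adjusted p = 9.56e-13), and no other fRIP library exceeded 3.58 FPKM. CHD1-210, annotated as a retained intron, was at 76.3, 54.7 and 93.6 FPKM against 9.86 ± 1.07 (log2 change 2.78), and the coding isoform CHD1-205 was at 9.97, 6.16 and 12.2 FPKM against 1.42 ± 0.548 (log2 change 2.10). CHD1-201, CHD1-203, CHD1-204, CHD1-206, CHD1-207 and CHD1-209, also annotated as retained introns, changed by between -0.19 and 0.63 and were not called. FPKM are shared out among overlapping isoforms by the quantification, so that a level of 1 isoform depends on the others modelled with it. Beside these, 1 isoform of the CHD2 row (CHD2-202, log2 change 1.74) and 1 of CHD9 (CHD9-217, 1.73) were enriched in CHD1 fRIP, and 0 of 121 member isoforms were depleted.

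**Figure D3:**
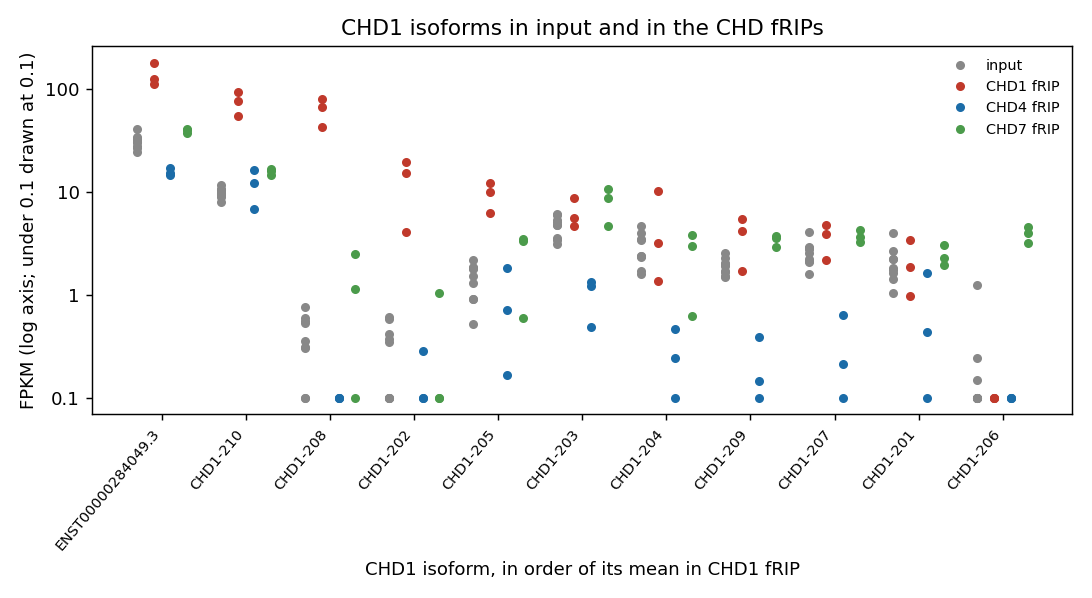
FPKM (log axis, values under 0.1 drawn at 0.1) of the 11 CHD1 isoforms in every input, CHD1 fRIP, CHD4 fRIP and CHD7 fRIP library. The 5 isoforms on the left are above every input in all 3 CHD1 fRIP libraries, while the retained-intron isoforms to their right overlap with input.

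Junctions of 3 enriched isoforms that CHD1-205 lacks are shown because reads across them would tell these RNAs from the coding isoform. They are not the only differences, and ENST00000284049.3 has no exon model here. All lie on the minus strand of chromosome 5 in hg19. Each line gives 15 bases that end the upstream exon in lower case and 15 bases that begin the downstream exon in capitals, read 5′ to 3′ from the reference. The first line is the junction of CHD1-208 that skips an exon of 179 bases at chr5:98199112-98199290, followed by the junctions with which CHD1-205 enters and leaves that exon.
CHD1-208 skipping junction: aagacattcagcattAAACCTGTGGATTTT
CHD1-205 junction into the exon: aagacattcagcattTGTAAAGAAAGAATG
CHD1-205 junction out of the exon: taagcaatggagaaaAAACCTGTGGATTTT

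CHD1-202 skips the next exon instead, of 97 bases at chr5:98195676-98195772, and CHD1-210 skips an exon of 264 bases at chr5:98204718-98204981 further upstream.
CHD1-202 skipping junction: taagcaatggagaaaCAAAACAGTGATCAA
CHD1-205 junction at the same downstream exon: cggcaggagtctcagCAAAACAGTGATCAA
CHD1-210 skipping junction: gaagatgatgataaaTTGAGTGAATCCAAG
CHD1-205 junction at the same upstream exon: gaagatgatgataaaGATGAGATCAGTTCT

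Both decay-annotated isoforms are short models of 5 exons in the annotation, with other starts and ends than CHD1-205, and within the stretch they share with it each skips 1 exon whose length is no multiple of 3 bases. The skipped exon of CHD1-210 is a multiple of 3. The share of CHD1 FPKM in isoforms annotated as something other than coding rose from 43.5% ± 3.32 in input (n = 9) to 53.3% ± 3.11 in CHD1 fRIP (n = 3, exact permutation test, adjusted p = 0.0273 over 24 pairs). In CHD7 fRIP the same share was 49.6% ± 1.02 (adjusted p = 0.0436, exact test). Isoforms without a match in the annotation were not counted as non-coding, and they held 54.0% of CHD1 FPKM in input.

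CHD4 fRIP did not enrich CHD4 mRNA, and 7 of 8 members had a negative change there, with only 1 called. CHD4 mRNA was at 95.2, 159 and 258 FPKM against 156 to 325 FPKM, with overlapping groups, and the change of -0.62 (SE 0.33, limma adjusted p = 0.14, exact permutation p = 0.0636) was not called. Without its erratic isoform it was -0.72 (limma adjusted p = 0.000845), still short of the size threshold. Of the 8 members, 7 had a negative change in CHD4 fRIP and 1 was depleted, where 9.79% of all genes were depleted and 2.91% enriched. The depleted member was CHD6, at 9.36, 15.9 and 10.6 FPKM, below every input (21.5 to 32.0 FPKM). Its log2 change was -1.02 (SE 0.12, limma adjusted p = 5.8e-10). The call was lost under 9 of 26 alternatives, among them without CHD4 replicate 1 or 3 and against input set 2 or 3 alone. CHD7 mRNA was at 7.08, 8.11 and 8.71 FPKM, also below every input (12.4 to 18.5 FPKM), with a change of -0.96. CHD1 mRNA was at 32.3, 27.0 and 32.8 FPKM, below every input, with a change of -0.87, and CHD9 at 41.1, 37.4 and 34.6 FPKM with -0.67, and both passed the adjusted p but not the size. The median over members was -0.65, beside -0.12 over all genes tested. When libraries were centred on the same median, every member of CHD4 fRIP shifted up by 0.40, CHD6 moved to -0.62 and CHD1 to -0.47, and none was called. The share of enriched genes among those called moved from 22.9% to 69.6% under that centring. The size and call of CHD6 therefore depend on the scaling. Centring shifts all members by the same value, so it cannot change their order.

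Within the CHD4 row of CHD4 fRIP, a short isoform at the 3′ end of the gene rose while the main coding isoforms were not called. CHD4-201 was at 26.0, 26.7 and 41.4 FPKM against 45.0 ± 4.13 in input (log2 change -0.53, not called), and CHD4-206 at 26.3, 27.7 and 25.8 FPKM against 42.0 ± 8.68 (-0.61, not called). The isoform CHD4-203, annotated as a retained intron at chr12:6679511-6681090, was at 29.7, 15.2 and 63.6 FPKM against 1.79 ± 0.745. It was enriched with a log2 change of 3.56 (SE 0.40, limma adjusted p = 1.41e-10). Its highest mean was in PABP fRIP at 91.8 FPKM, and HUR fRIP, with a mean of 35.3 FPKM, was close behind CHD4 fRIP. The share of CHD4 FPKM in isoforms other than coding rose from 4.37% ± 1.84 in input to 22.5% ± 11.3 in CHD4 fRIP (adjusted p = 0.0273, exact test). Isoforms without a match in the annotation held 55.4% of CHD4 FPKM in input. They count in the total only, so a fall in them also raises the share. Another 5 isoforms of the row were depleted, among them ENST00000536999.1, which fell from 50.7 ± 12.3 FPKM to 0.145, 20.9 and 2.41 FPKM (log2 change -3.52). Over all members, 7 isoforms were enriched and 29 depleted of 121 tested, where 4.17% and 12.0% of all isoforms were called in these directions. CHD1-203, CHD1-204, CHD1-207 and CHD1-209 were among the depleted ones, with log2 changes of -1.50, -1.62, -1.46 and -1.30.

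CHD7 fRIP enriched CHD8 mRNA, a subfamily relative of its target. CHD8 was at 48.1, 53.9 and 38.4 FPKM, above every input (16.7 to 27.2 FPKM). The log2 change was 1.10 (SE 0.17, limma adjusted p = 1.44e-06), and 0.99% of all genes were enriched and 0.896% depleted in this fRIP. The call was lost without the second CHD7 library (0.99), against input set 1 alone (0.94) and with 1 isoform in place of the row (0.80), and it held against input set 3, its matched set (1.25). CHD7 mRNA itself was at 29.7, 39.5 and 25.9 FPKM, also above every input (12.4 to 18.5 FPKM), and its change of 0.89 (SE 0.15, limma adjusted p = 8.83e-06, exact permutation p = 0.00455) was just under the size threshold. Against input set 3 alone, the set that the deposited comparison of CHD7 used, it was 1.04 and passed. CHD7 mRNA ranked 420th from the top of 25442 genes. CHD1 mRNA (73.3, 86.4 and 88.1 FPKM, change 0.53) and the CHD2 row (231, 245 and 235 FPKM, change 0.74) also lay above every input and passed the adjusted p but not the size. CHD3, CHD4, CHD6 and CHD9 overlapped with input, with changes of -0.01, 0.11, 0.24 and 0.34. The median over the 8 members was 0.43, beside 0.00336 over all genes tested.

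No CHD7 isoform was called in CHD7 fRIP. The main one, the coding isoform CHD7-201, was at 22.2, 25.4 and 18.5 FPKM against 11.9 ± 1.11 in input, a log2 change of 0.84. The isoform CHD8-201 was enriched, at 9.66, 13.1 and 11.0 FPKM against a mean of 1.97 in input (log2 change 2.10). CHD2-201 was enriched as well, at 40.7, 50.8 and 40.7 FPKM against 19.3 ± 3.66 (log2 change 1.16). In all, 10 member isoforms were enriched and 2 depleted in CHD7 fRIP, where 1.39% and 0.601% of all isoforms were called.

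The 3 CHD fRIPs were also compared with each other without input. CHD1 mRNA was lower in CHD4 than in CHD1 fRIP (log2 change -3.31, SE 0.18, limma adjusted p = 2.19e-22), lower in CHD7 than in CHD1 fRIP (-1.91, limma adjusted p = 2.4e-12) and higher in CHD7 than in CHD4 fRIP (1.40, limma adjusted p = 2.08e-09). CHD7 mRNA was higher in CHD7 fRIP than in CHD1 fRIP (1.02, SE 0.18, limma adjusted p = 6.97e-05) and than in CHD4 fRIP (1.85, limma adjusted p = 1.95e-12). CHD4 mRNA was lower in CHD4 than in CHD1 fRIP (-1.19, SE 0.41, limma adjusted p = 0.0189), and the difference between CHD7 and CHD4 fRIP (0.72, adjusted p = 0.158) did not pass. Of the 8 members, 3 differed between CHD4 and CHD1 fRIP, 2 between CHD7 and CHD1 fRIP and 5 between CHD7 and CHD4 fRIP, where 13.4%, 2.15% and 20.2% of all genes differed. CHD6 was the third for CHD4 against CHD1 (-1.04), and CHD6 (1.26), CHD8 (1.45) and CHD9 (1.00) joined CHD1 and CHD7 in the comparison of CHD7 with CHD4. With centred libraries the counts were 1, 1 and 2. Those that passed were CHD1 in CHD4 and in CHD7 fRIP against CHD1 fRIP (-2.996 and -2.025) and CHD7 and CHD8 in CHD7 against CHD4 fRIP (1.42 and 1.02). CHD1 in CHD7 against CHD4 fRIP (0.97), CHD7 in CHD7 against CHD1 fRIP (0.90) and CHD4 in CHD4 against CHD1 fRIP (-0.88, limma adjusted p = 0.124) lost the call, as did CHD6 and CHD9. The share of genes higher among all those that differed moved from 32.1% to 68.1%, from 60.3% to 39.3% and from 67.5% to 29.6%. With 3 against 3 libraries an exact test cannot go below 0.1.

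CHD7 mRNA was the 7th most enriched of all genes in LSD1 fRIP. It was at 140, 141 and 173 FPKM there, and no other fRIP had a mean above that of EZH2, whose 2 libraries were at 65.6 and 68.6 FPKM. The log2 change in LSD1 fRIP was 3.12 (SE 0.15, limma adjusted p = 1.04e-24), and 0.814% of all genes were enriched in this fRIP. None of the other 7 member rows was called there, and the median over members was 0.04. Within the CHD2 row, the isoforms annotated as CHD2 changed by 1.18 (exact permutation p = 0.00455), CHASERR by -0.33 and those with no match by -0.29. The CHD3 isoform CHD3-203 was at 18.6 to 20.2 FPKM in LSD1 fRIP, against 8.74 to 11.1 FPKM in input. Under centring the share of enriched genes among those called in LSD1 fRIP moved from 10.9% to 66.4%. CHD7-201 carried the change, at 126, 117 and 155 FPKM (log2 change 3.37, limma adjusted p = 6.55e-30), above its highest value of 52.6 FPKM in any other fRIP library. CHD7-207, a short isoform with no defined reading frame, was at 11.5, 20.9 and 14.9 FPKM against 0.638 ± 0.75 (log2 change 3.45), and the retained-intron isoform CHD7-210 was listed at or near 0 in all 3 libraries against 1.25 ± 0.502 in input. Over all members, 8 isoforms were enriched and 7 depleted in LSD1 fRIP, with 1.85% and 4.9% of all isoforms called. In EZH2 fRIP, which targets the catalytic subunit of PRC2, the change of CHD7 was 1.97 (SE 0.18, limma adjusted p = 1.38e-14). It was the only member row called, where 10.5% of all genes were enriched. The CHD3 row, with its erratic isoforms, was not called there, while its isoform CHD3-203 was at 21.6 to 32.5 FPKM, above every input.

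**Figure D4:**
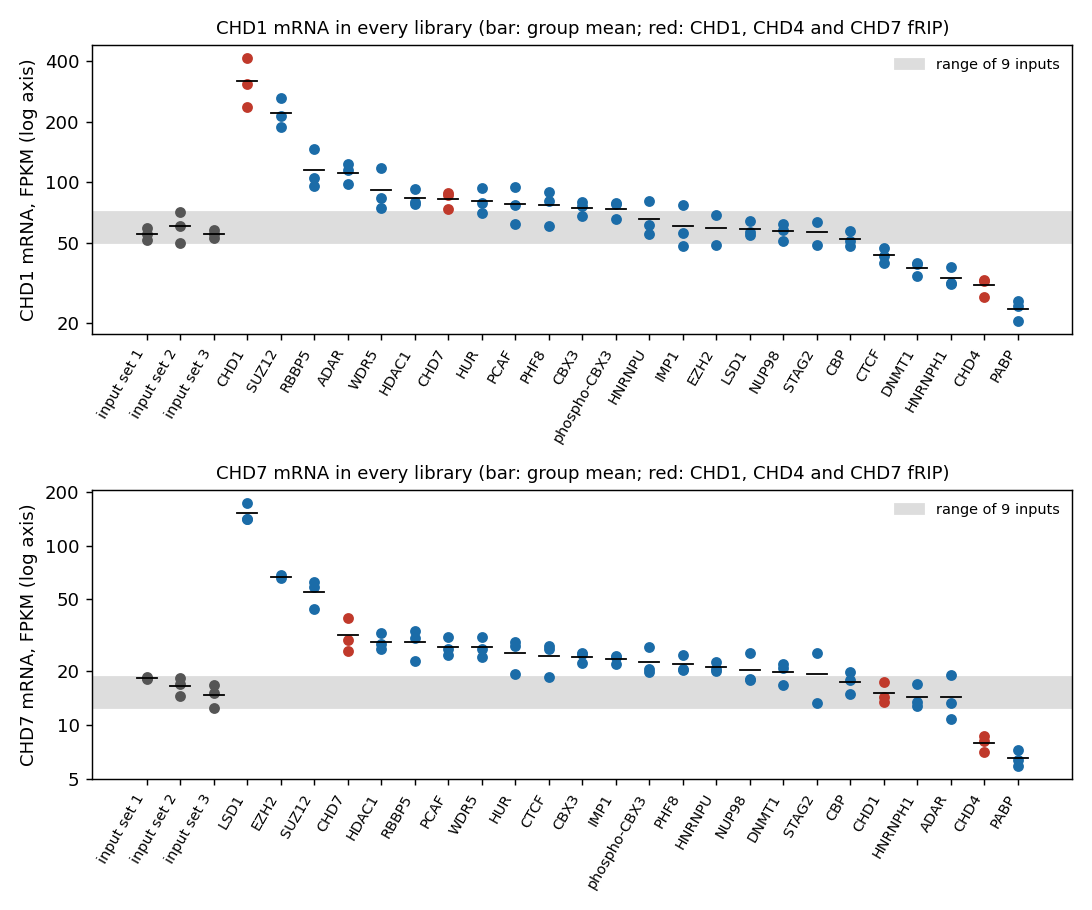
FPKM (log axis) of CHD1 mRNA (top) and CHD7 mRNA (bottom) in every library of the 3 input sets and the 24 fRIPs, ordered by the group mean shown as a bar, with the range of the 9 inputs shaded. CHD1 is highest in CHD1 fRIP (236 to 416 FPKM), CHD7 is highest in LSD1 fRIP (140 to 173 FPKM), and both are lowest in PABP fRIP and next lowest in CHD4 fRIP.

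SUZ12 fRIP enriched the whole family. For the rows as deposited, the largest changes were those of CHD3 (2.58), CHD6 (2.57) and CHD9 (2.46). Then came CHD2 (2.25), CHD1 (1.93), CHD8 (1.78), CHD7 (1.67) and CHD4 (1.23), where 15.3% of all genes were enriched and the median of all genes was 0.01. Without its CHASERR isoforms the CHD2 row changed by 2.90. CHD6 was at 142, 140 and 175 FPKM, CHD9 at 297, 297 and 433 FPKM and CHD8 at 75.1, 69.8 and 80.4 FPKM, all above every input. CHD3, at 71.6, 417 and 209 FPKM, overlapped with its highest inputs, and without its erratic isoforms the change was 1.59. CHD4, at 489, 420 and 901 FPKM, was above every input, but the call rested on 1 library: without the third SUZ12 library the change was 0.90 and was not called. Without the erratic isoforms it was 1.18 and called.

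CHD6 and CHD9 were enriched together in HDAC1 fRIP and in the fRIP of the phosphorylated heterochromatin protein CBX3. HDAC1 is a histone deacetylase and a subunit of NuRD. In HDAC1 fRIP, CHD9 was at 190, 212 and 231 FPKM (log2 change 1.79, SE 0.15), CHD6 at 76.7, 77.4 and 86.4 FPKM (1.66) and the CHD2 row at 360, 283 and 294 FPKM (1.13), 3 of 8 members where 8.42% of all genes were enriched. The CHD2 row lost its call against the matched input set (0.90) and with centring (0.84), which leaves 2 of 8. The rows of the NuRD motors CHD3 and CHD4 were not called there (1.36 and 0.66). The CHD3 row holds erratic isoforms, and its coding isoform CHD3-203 was at 14.6 to 21.0 FPKM in HDAC1 fRIP, above every input (8.74 to 11.1 FPKM). In phospho-CBX3 fRIP, CHD9 was at 166, 200 and 169 FPKM (1.55) and CHD6 at 59.6, 55.1 and 59.8 FPKM (1.20), all above every input. Against input set 1, its matched set, CHD6 was at 0.95 and not called. CHD3 was called there as well (1.73), at 154, 33.2 and 202 FPKM with 1 library inside the range of the inputs, and the call was lost under most alternatives, among them the removal of the erratic isoforms (0.98). In this fRIP 2.58% of all genes were enriched. Of the member rows, CBX3 fRIP enriched CHD6 alone (56.3, 77.7 and 58.6 FPKM, log2 change 1.33), where 7.45% of all genes were enriched. That call was lost with 1 isoform in place of the row (0.54). Within the uncalled CHD2 row, the isoforms annotated as CHD2 changed by 1.13 in CBX3 fRIP (exact permutation p = 0.00455). Those with no match changed by 1.59 (exact permutation p = 0.00455) and CHASERR by -0.02.

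Of the RNA binding proteins, ADAR and HNRNPH1 had members enriched. ADAR, an adenosine deaminase of double-stranded RNA, enriched CHD6 (73.1, 74.4 and 81.2 FPKM, log2 change 1.59) and CHD9 (117, 109 and 155 FPKM, 1.05). As 26.6% of all genes were enriched in ADAR fRIP, 2 of 8 members is a share near the background, and these libraries were the shallowest, with 1.79 to 2.14 M fragments. With centring neither was called, at 0.61 for CHD6 and 0.067 for CHD9. HNRNPH1, a splicing regulator, enriched the CHD2 row (283, 342 and 287 FPKM, 1.09) and CHD3 (2.24), likewise near the 24.5% of all genes enriched. The CHD2 row lost its call with centring (0.36) and against the matched input set (0.87). CHD3 in that fRIP was at 62.4, 64.8 and 752 FPKM, and the third library carried the change. Without that library the pair was not called, and with the erratic isoforms left out it was 1.56.

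PABP fRIP depleted CHD6, CHD9, CHD1 and CHD7, where 14.7% of all genes were depleted and 11.1% enriched. CHD6 was at 3.96, 3.89 and 3.16 FPKM, a log2 change of -2.46 (SE 0.12, limma adjusted p = 9.93e-25). CHD9 was at 18.2, 19.5 and 18.7 FPKM (-1.63), CHD1 at 24.3, 25.8 and 20.5 FPKM (-1.24) and CHD7 at 7.26, 6.36 and 5.89 FPKM (-1.22), each below every input. Centring moved all members up by 0.49, and CHD6 (-1.97) and CHD9 (-1.14) remained depleted. The share of enriched genes among those called in PABP fRIP moved from 43.0% to 75.2% under centring. CHD3 (-1.0) and CHD4 (-0.83) were not called, although they too were below every input. CHD3 was at 13.7, 15.5 and 14.2 FPKM and CHD4 at 144, 131 and 131 FPKM. CHD8, with a change of 0.05, overlapped with input.

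Single pairs were called in 2 further fRIPs. DNMT1, the maintenance DNA methyltransferase, enriched CHD8 (54.2, 38.0 and 40.0 FPKM, log2 change 1.01), where 9.56% of all genes were enriched. The call was lost under 8 of 26 alternatives, among them the matched input set (0.85). PCAF, a histone acetyltransferase, enriched CHD4 (424, 611 and 481 FPKM, log2 change 1.04, limma adjusted p = 0.0114), where 0.515% of all genes were enriched. All 3 PCAF libraries were above every input. With the replicate number as a block within input set 2, where the PCAF libraries paired with the inputs, the change was 0.89 and the call was lost, and without the erratic isoforms it was 0.68. No member was called in the remaining fRIPs. There the share of all genes enriched was 9.08% for CBP, 0.424% for CTCF, 13.1% for HNRNPU, 6.42% for HUR, 4.23% for IMP1, 0.263% for NUP98, 3.18% for PHF8, 2.28% for RBBP5, 0.979% for STAG2 and 3.9% for WDR5. The share depleted was 3.78% for CBP, 0.79% for CTCF, 2.52% for HNRNPU, 6.93% for HUR, 10.5% for IMP1, 5.11% for NUP98, 1.71% for PHF8, 0.731% for RBBP5, 3.36% for STAG2 and 6.71% for WDR5. Under centring the share of enriched genes among those called in these fRIPs moved from 34.95% to 45.08% for CTCF, from 83.9% to 25.3% for HNRNPU, from 48.1% to 20.4% for HUR, from 28.8% to 77.5% for IMP1, from 4.90% to 61.2% for NUP98, from 65.0% to 28.8% for PHF8, from 75.7% to 36.8% for RBBP5 and from 36.7% to 78.2% for WDR5. For CBP and STAG2 it moved by under 10 percentage points. Centring also moved the share of enriched genes among those called from 86.1% to 24.8% for ADAR, from 67.1% to 50.0% for CBX3, from 53.5% to 67.7% for EZH2, from 61.1% to 29.7% for HDAC1, from 75.6% to 28.0% for HNRNPH1, from 5.69% to 82.4% for PCAF and from 47.0% to 57.9% for phospho-CBX3. In the fRIPs with enriched members alone, the share of genes depleted was 4.31% for ADAR, 3.65% for CBX3, 6.88% for DNMT1, 9.13% for EZH2, 5.35% for HDAC1, 7.9% for HNRNPH1, 6.66% for LSD1, 8.54% for PCAF, 2.91% for phospho-CBX3 and 8.6% for SUZ12.

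The CHD2 row of the table holds isoforms of 2 annotated genes. Of its 28 isoforms, 9 belong in the annotation to CHASERR, a long non-coding RNA at chr15:93362770-93442931 on the same strand that lies upstream of CHD2 and overlaps its start. CHASERR is known as a repressor of CHD2 expression in cis. A further 2 isoforms are assigned to CHD2 itself, and 17 had no match, so whether they belong to CHD2 is not known here. In input (n = 9) the CHASERR isoforms summed to 64.2 FPKM ± 5.64, the annotated CHD2 isoforms to 21.3 ± 3.35 and the unmatched ones to 57.5 ± 17.2. In CHD4 fRIP the CHASERR sum was 166, 121 and 140 FPKM, above every input (log2 change 1.13, exact permutation p = 0.00455). The unmatched sum was at 10.7 FPKM ± 4.29 there, below every input (-2.32, exact permutation p = 0.00455), while the annotated CHD2 isoforms were at 26.9 ± 4.93 (0.32, exact permutation p = 0.127). The row as deposited changed by 0.34. In PABP fRIP CHASERR was at 159 FPKM ± 10.7 (1.29), the annotated CHD2 isoforms at 11.1 ± 0.593 (-0.86) and the unmatched ones at 2.36 ± 0.608 (-4.08), beside 0.28 for the row. The fall was of different size in the annotated and in the unmatched isoforms, a difference that was not tested. In CHD7 fRIP CHASERR was at 140, 132 and 120 FPKM, above every input (1.01, exact permutation p = 0.00455). The annotated CHD2 isoforms were above every input as well (44.1 FPKM ± 5.84, log2 change 1.03, exact permutation p = 0.00455), and the unmatched sum changed by 0.15 (exact permutation p = 0.559). In CHD1 fRIP the changes were -0.20 for CHASERR, 0.14 for the annotated CHD2 isoforms and 0.22 for the unmatched ones. In HDAC1 fRIP the annotated CHD2 isoforms were at 81.2 FPKM ± 12.3 (1.89) and the unmatched ones at 160 ± 28.4 (1.50), with CHASERR at 71.1 ± 4.61 (0.15). In SUZ12 fRIP the annotated CHD2 isoforms changed by 2.37, the unmatched ones by 3.05 and CHASERR by 0.61. Changes of opposite sign occurred in PABP fRIP, as given above, and in several other fRIPs. In phospho-CBX3 fRIP they were 1.77 for the annotated CHD2 isoforms (exact permutation p = 0.00455) and -0.30 for CHASERR (exact permutation p = 0.0136). In CBP fRIP they were 0.66 and -0.66 (exact permutation p = 0.00455 for each), and in LSD1 fRIP 1.18 and -0.33 (exact permutation p = 0.00455 and 0.00909). CHASERR was highest in RBBP5 fRIP at 173 FPKM ± 6.68 (1.42).

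**Figure D5:**
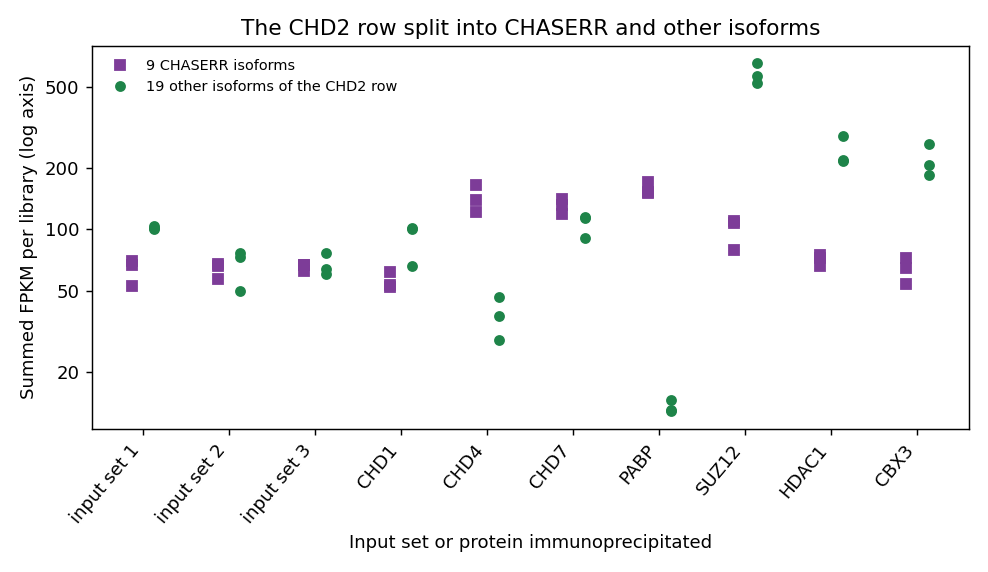
Summed FPKM (log axis) per library of the 9 CHASERR isoforms (squares) and of the other 19 isoforms (circles) of the CHD2 row, in the 3 input sets and 7 fRIPs. CHASERR lies above the other isoforms in CHD4, CHD7 and PABP fRIP and below them in CHD1, SUZ12, HDAC1 and CBX3 fRIP.

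The share of FPKM in isoforms other than coding was tested for all 8 members in the 3 CHD fRIPs, and 5 of 24 pairs passed an adjusted p of 0.05, all with a higher share than in input. Beside CHD1 in CHD1 and CHD7 fRIP and CHD4 in CHD4 fRIP, these were CHD2 in CHD4 fRIP (45.6% ± 6.27 in input and 78.9% ± 5.90, adjusted p = 0.0273, exact test), where CHASERR counts as non-coding, and CHD9 in CHD4 fRIP (35.2% ± 2.77 and 58.3% ± 4.79, adjusted p = 0.0273, exact test). CHD3, CHD6, CHD7 and CHD8 had no share that passed in any of the 3 fRIPs. Isoforms without a match count in the total only, so a fall in them also raises a share. In the CHD2 row they fell from a mean of 57.5 FPKM in input to 10.7 FPKM in CHD4 fRIP.

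Few genes for partners of the CHD proteins were called in the CHD fRIPs. Of 12 NuRD subunits other than the CHD motors, none was called in CHD1 fRIP, 1 was enriched in CHD4 fRIP (RBBP7, a histone chaperone, log2 change 1.02, where 2.91% of all genes were enriched) and 1 was depleted in CHD7 fRIP (CDK2AP1, -1.12, where 0.896% were depleted). In SUZ12 fRIP 2 of the 12 were enriched (MTA1 1.20 and MTA3 1.52) and 1 was depleted (CDK2AP1 -2.16), with a list median of 0.23. Of 18 other SNF2-type remodeler ATPases, 3 were depleted in CHD4 fRIP (EP400 -1.23, SRCAP -1.27 and HELLS -1.03, with a list median of -0.47, where 9.79% of all genes were depleted) and 2 were enriched in CHD7 fRIP (INO80 1.57 and SMARCA2 1.08, with a list median of 0.42, where 0.99% of all genes were enriched). None of the 18 was called in CHD1 or LSD1 fRIP, and 16 of 18 were enriched in SUZ12 fRIP (list median 1.50, where 15.3% of all genes were enriched). CHD5, the family member outside this set, was at 0.303 FPKM ± 0.140 in input. Of 8 subunits of the PAF1 and FACT elongation complexes, which include partners of CHD1, none was called in CHD1, CHD4 or CHD7 fRIP, and CDC73 and SUPT16H were enriched in SUZ12 fRIP. WDR5, ASH2L and RBBP5, partners of CHD8, were not called in these 4 fRIPs.

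Reads of genes that overlap a member cannot be told from those of the member by strand, since the library kit keeps none. Of 9 such genes, 7 had input means of 0.542 to 3.30 FPKM. LSMD1, which overlaps the start of CHD3, was at 25.2 FPKM ± 7.70 in input and fell to 6.27 ± 1.20 in SUZ12 fRIP, where CHD3 rose. RP5-940J5.6, a non-coding RNA on the strand opposite CHD4, was at 15.8 FPKM ± 2.24 in input, 8.55 ± 1.12 in CHD4 fRIP and 34.7 ± 5.05 in SUZ12 fRIP. In both fRIPs its mean moved in the direction of that of CHD4 mRNA, whose change in CHD4 fRIP was not called. The part of RP5-940J5.6 in the CHD4 values was not tested.

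Over the 24 fRIPs, the genes whose mean log2(FPKM + 1) was most like that of a member are given as a description, with Pearson's r over 24 proteins that share the input and the cell line. For CHD6 they were ERC1 (0.978) and GON4L (0.961), for CHD9 AHI1 (0.959) and POLQ (0.956), and for CHD2 AC097500.2 (0.891) and WHAMMP2 (0.884). For CHD8 they were ACACA (0.860) and BLM (0.841), for CHD4 SLC4A1AP (0.858) and SPTAN1 (0.849), for CHD3 OCRL (0.840) and ANKS1A (0.826), and for CHD7 TRIP12 (0.813) and FNIP2 (0.801). CHD1 had the lowest values, with TEX10 (0.731) and NAA15 (0.727). Between members, r ranged from 0.0798 to 0.897 over 28 pairs with a median of 0.509, and without SUZ12 fRIP the median was 0.338.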

How the data were processed

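RNA was isolated from fRIP and input material of K562 cells and depleted of ribosomal RNA, and paired-end libraries were made with a kit that keeps no strand. Per the submitters' processing notes, reads were processed with CASAVA 1.4, TopHat, Cuffdiff and Cuffnorm against hg19, with GENCODE v18 as the annotation. FPKM were made by the authors and deposited per gene and per isoform for each of 79 libraries. The deposited table of comparisons gives pooled group FPKM, which the authors made over replicates and which served here only to find the input set behind each comparison, and the authors' own tests, which were not used. Isoforms were named, classed and located by identifier from GENCODE v44 lifted to hg19, which also gave the junction sequences.

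Groups came from the sample labels. Values were taken as log2(FPKM + 1) with genes of at least 1 FPKM in at least 2 libraries, and limma 3.58.1 in R 4.3.3 fitted 1 trend model with a mean per protein and 1 for input. Isoforms were fitted in the same way. Single values had exact two-sided permutation tests. Tables were handled with Python 3.11.15, pandas 2.3.3 and numpy 2.4.6. The members and gene lists were chosen with earlier results of these data known. Named genes were the members, overlapping genes, 4 lists of partners and related genes, and the 2 genes most like each member. Depth was read from the step of 1 fragment in low values (85.7% to 92.7% of values within 0.15 of a whole number of fragments), so that low values have the largest counting error. The methods call the replicates biological, from separate lysates. Same-numbered libraries deviated together (every pair over 0.1) with the input set behind the comparison for CHD1, NUP98, PCAF and WDR5 (lowest pairs 0.129, 0.132, 0.138 and 0.171), from the data alone. The second STAG2 library, whose number differs between labels and table, was left out of the block fits. On simulated data of 25442 genes with 200 changed, 200 were recovered and 2 other genes called for CHD1-sized groups, and 195 and 7 for EZH2-sized groups. Alternatives were pseudocounts of 0.1 and 0.5 FPKM, no filter, centring, other input sets, replicate blocks, only the libraries compared, each replicate left out and, chosen after seeing the data, members without erratic isoforms, without CHASERR, or as 1 isoform each. No protein sequence was used here. The list of markers of other cell types is given in part, and the rest is not reported here.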

Additional observations from a re-analysis of the deposited data

How the results depend on the processing

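Of the 30 called pairs, 14 were called under every alternative: CHD1 in CHD1 fRIP, CHD7 in LSD1 and EZH2 fRIP, CHD6 and CHD9 in HDAC1 fRIP, CHD6 and CHD9 in PABP fRIP, CHD9 in phospho-CBX3 fRIP, and CHD1, CHD2, CHD6, CHD7, CHD8 and CHD9 in SUZ12 fRIP. The change of CHD1 in CHD1 fRIP ranged from 2.11 to 2.63. CHD3 in phospho-CBX3 fRIP was lost under 19 of 26 alternatives, CHD6 in CHD4 fRIP and CHD4 in PCAF fRIP under 9, CHD8 in DNMT1 fRIP under 8, CHD9 in ADAR fRIP under 7, CHD2 in HDAC1 and HNRNPH1 fRIP under 4 of 27, CHD8 in CHD7 fRIP and CHD6 in phospho-CBX3 fRIP under 3, CHD6 in ADAR fRIP and CHD3 in HNRNPH1 fRIP under 2, and CHD6 in CBX3, CHD1 and CHD7 in PABP, and CHD3 and CHD4 in SUZ12 fRIP under 1. The cause was not tested. Over 24 fRIPs the enriched pairs numbered 18 to 29 under the alternatives, and the depleted pairs 17 with 1 isoform per member beside 5.

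CHD7 in CHD7 fRIP was 1.04 and called against input set 3 alone, which is its matched set, and 0.72 to 1.02 with 1 library left out (called at 1.02 without CHD7 replicate 3). CHD4 in CHD4 fRIP was -3.52 and called with 1 isoform, ENST00000536999.1, in place of the row, and CHD6 in ADAR fRIP turned to -0.092 with 1 isoform. The member count depleted in CHD4 fRIP, 1, was 2 with pseudocounts of 0.1 and 0.5 FPKM, against input set 1 alone or the matched set, without CHASERR and with 1 isoform per member, 0 with centring and against input set 2 or 3 alone, and 0 to 2 with 1 library left out (0 without CHD4 replicate 1 or any library of input set 1, and 2 without input set 3 replicate 3). The count enriched in CHD7 fRIP, 1, was 0 against input set 1 alone, 2 against set 3 or the matched set, and 0 to 2 with 1 library left out (0 without CHD7 replicate 2 and 2 without CHD7 replicate 3). Members that differ between CHD4 and CHD1 fRIP numbered 1 with centring and 1 to 3 with 1 library left out (1 without CHD4 replicate 1). Between CHD7 and CHD1 fRIP they numbered 1 with centring and with only the libraries compared, and 1 to 3 with 1 library left out (1 without CHD1 replicate 1 or CHD7 replicate 2). Between CHD7 and CHD4 fRIP they numbered 2 with centring. The neighbours in the input order that differ fell from 3 to 0 without any 1 input set, where 6 libraries limit the exact test. The pairs with a higher non-coding share, 5, numbered 0 to 4 with 1 library left out, 3 without any CHD1 library and 0 without any CHD4 library, where 2 against 9 libraries limit the exact test. Against the matched set alone 3 against 3 libraries cannot pass it, so that count was not run.

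With the replicate number as a block over all libraries, 24 pairs were enriched and 5 depleted, and within the matched input set 20 and 6. The block within the matched set gave 1.04 and a call for CHD7 in CHD7 fRIP, 2 members depleted in CHD4 fRIP and 2 enriched in CHD7 fRIP, as the matched set did without the block, although these libraries share only a number. For CHD1 fRIP, whose libraries paired, the block changed no count. Depth limits low isoforms most, and FPKM of overlapping isoforms depend on the isoforms modelled with them.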
